A study of Mus musculus with 7 samples.

Results

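The genes described here are the mouse Fc receptors for immunoglobulin G: Fcgr1, Fcgr2b, Fcgr3 and Fcgr4, the signal chain Fcer1g, and Fcgrt, the receptor that carries immunoglobulin G through cells. They were taken by gene name from the array annotation, and the set was chosen by measured values, because Fcgr2b and Fcgr3 were higher in Sdc4+ cells in earlier results of the same arrays. All 6 genes had a probe, among 34947 gene names on the array. Every value below on the Sdc4 contrast is therefore a description of these genes, with no test.

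Fc receptors bind the constant part of antibodies. Fcgr1, Fcgr3 and Fcgr4 are activating receptors that signal through the chain encoded by Fcer1g, whose tyrosine motifs recruit the kinase Syk. Fcgr2b is the inhibitory receptor of the family and signals through its own tail, which recruits the phosphatase encoded by Inpp5d. Fcgrt pairs with B2m, returns immunoglobulin G from endosomes to the cell surface and does not signal through Fcer1g. The first 4 are best known from macrophages, neutrophils, mast cells and, for Fcgr2b, B cells.

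The study measured RNA of 7 mouse cell populations, with 1 array for each population, under a title that speaks of dermal myogenic precursors. Sdc4 (syndecan 4) and Cspg4 (the NG2 proteoglycan) are cell surface proteins, and plus or minus stands for their presence or absence in the labels. The 3 Sdc4+ populations were the following: Myf5SOR+ cells traced in B6.129S4-Myf5tm3(cre)Sor/J mice, in which Cre is knocked into Myf5, Cspg4- cells of B6,FVB-Tg(Cspg4-cre)1Akik/J mice, and cells of outbred Crl:CD1(ICR) mice. The 3 Sdc4- populations were B195AP+ cells of B195AP-Cre mice, Cspg4- cells of the Cspg4-cre line and CD1 cells. The last population was Cspg4+, from the Cspg4-cre line, with no Sdc4 label. The labels name neither the sorting method, nor the age of the mice, nor the gene that drives B195AP-Cre. Between 8 and 10 animals stand behind each population, so an array averages over animals, and the SDs below measure the spread between populations of different lines. In such bulk RNA, fewer cells of a type and less RNA per cell cannot be told apart.

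Between 45.9% and 50.8% of spots were well above background on 6 arrays and 57.2% on the Cspg4+ array. The B195AP+ array had 689 outlier spots against 137 to 168 on the others, and part of it was streaked. All arrays lay on 1 slide and were scanned once, with the Sdc4+ arrays in slide row 1 and the other 4 in row 2, so slide row and Sdc4 label cannot be told apart. Sdc4 mRNA itself was 3.80, 6.29 and 6.35 on the Myf5SOR+, Cspg4- and CD1 Sdc4+ arrays and 1.98, 5.11 and 5.28 on the B195AP+, Cspg4- and CD1 Sdc4- arrays, so the groups overlapped for the labelled gene. Of the satellite cell markers, Pax7 and Myf5 were not well above background on any of the 7 arrays and Myod1 on 1, while Cdh15, Itga7 and Vcam1 were above it on all 7 and Des on 5. Cdh15 and Des were lower on the Sdc4+ arrays without overlap, by -1.14 and -2.25 log2 units (limma adjusted p = 0.553 and 0.52), and the spots of both lie in the streaked region. All 6 fibroblast markers were above background on every array.

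The probes are shown first because each gene was read by 1 probe, and the arrays cannot say more than these 60 bases do. Probes are given 5′ to 3′ in lower case, with mm9 coordinates from the file headers; the first 30 bases are given for 4 of them and the whole probe for Fcgr3 and Fcgrt.
Fcgr2b, chr1:172890988-172891047, minus strand: acttctgtgagtcctgaaaccaacagacac
Fcgr3, chr1:172984129-172984188, minus strand: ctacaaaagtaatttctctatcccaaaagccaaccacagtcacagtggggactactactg
Fcgr4, chr1:172959738-172959797, plus strand: ccaagaagcgattcttcagaattttacact
Fcgr1, chr3:96086839-96086898, minus strand: ccacatgtgcagggcatgcagacacagaca
Fcer1g, chr1:173159794-173159853, minus strand: aggtccccatctccgttaaagacttactca
Fcgrt, chr7:52350556-52350615, minus strand: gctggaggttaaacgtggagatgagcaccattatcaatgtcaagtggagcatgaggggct
The Fcgr2b probe was spotted 10 times on every array and the others once. It begins at base 1188 of its annotated transcript and the Fcgr3 probe at base 550. Whether either probe also binds RNA of the related receptor was not tested.

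Levels are log2 intensities relative to the 75th percentile of the same array, so 0 is the intensity that 75 of 100 spots stay under, and 1 unit is a factor of 2. Of the 42 values (6 genes on 7 arrays), 25 were well above background. Fcgr2b, Fcer1g and Fcgrt were above background on all 7 arrays, Fcgr3 on 3, Fcgr1 on 1 and Fcgr4 on 0.

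**Figure D1:**
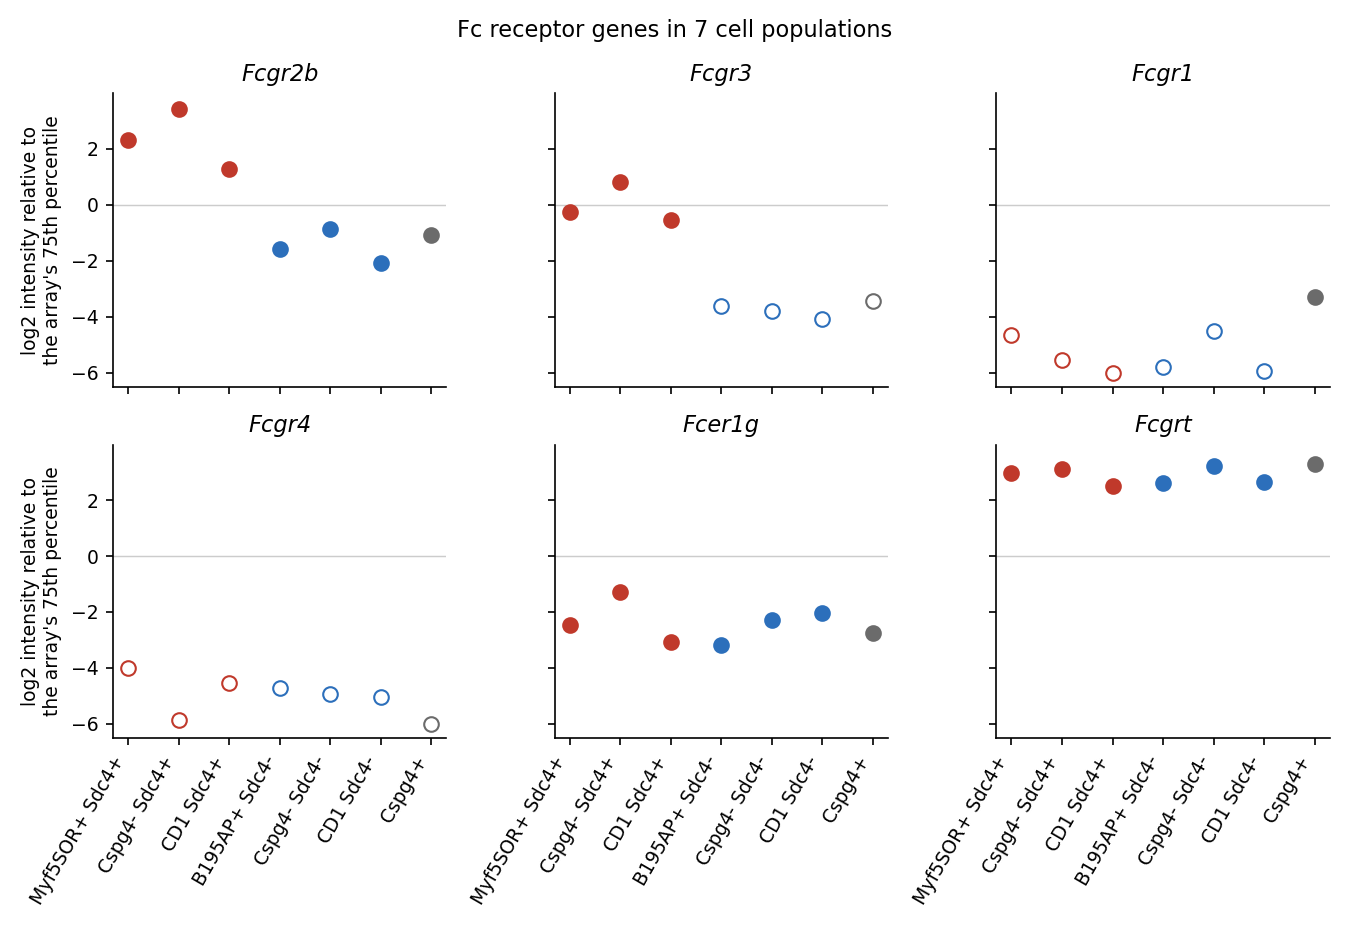
Level of each Fc receptor gene in each population, as log2 intensity relative to the 75th percentile of the array, with 1 point per array; filled points are well above background and open points are not. Red marks Sdc4+, blue Sdc4- and grey Cspg4+ populations; the SD between the spots of the Fcgr2b probe is smaller than the points. Fcgr2b and Fcgr3 are separated by the Sdc4 label and Fcgrt is nearly level.

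Fcgr2b, the inhibitory receptor, was 2.32 on the Myf5SOR+ array, 3.44 on the Cspg4- Sdc4+ array and 1.28 on the CD1 Sdc4+ array. It was -1.58 on the B195AP+ array, -0.87 on the Cspg4- Sdc4- array, -2.09 on the CD1 Sdc4- array and -1.08 on the Cspg4+ array. The lowest Sdc4+ array thus lay 2.15 log2 units above the highest of the other 4. The Sdc4+ mean was 2.35 ± 1.08 and the Sdc4- mean -1.51 ± 0.62 (SD, n = 3 each), a difference of 3.86 or 14.5-fold. Transcript signal remained above background in the Sdc4- populations. The processed intensity there was between 48.1 and 97.8, against 587 to 1392 in the Sdc4+ populations. Unlike the levels, these intensities are means over all spots, with outlier spots kept.

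The repeated spots show the spread within each array for Fcgr2b. The SD between spots was 0.069 to 0.14 log2 units on 6 arrays and 0.17 on the B195AP+ array, where 4 of the 10 spots were outliers and were left out. Of the 10 spot positions, 6 fall in the streaked region of that array. The 3 usable spots outside it averaged -1.68 there, against -1.58 over all 6 usable spots. The order of levels was judged against the SD between spots of repeated probes at a like level on the same arrays, combined over both arrays of a pair (the spot SD below). Every neighbouring pair but 1 differed by more than 2 such SDs. The exception was the pair of Cspg4- Sdc4- and Cspg4+ cells, which differed by 0.21 with a spot SD of 0.15. The spot SD holds only the spread between spots of an array, not that between samples or hybridisations. Whether the order would return on new arrays was not tested.

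**Figure D2:**
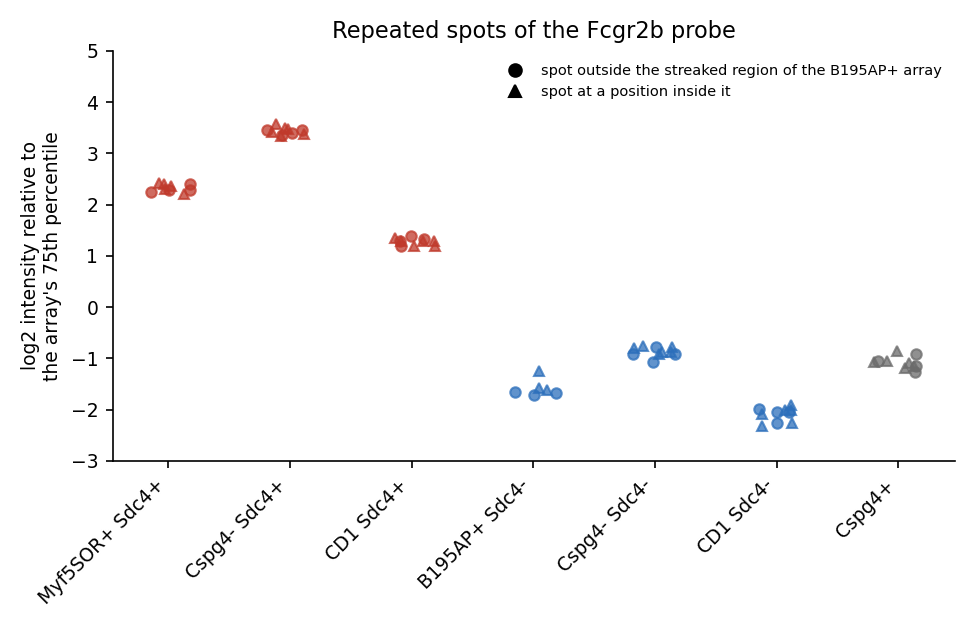
Repeated spots of the Fcgr2b probe on each array, as log2 intensity relative to the 75th percentile of the array, without outlier spots. Triangles are spot positions inside the region that is streaked on the B195AP+ array and circles are the rest; the spread between spots (SD 0.069 to 0.17) is small beside the gap of 2.15 between the Sdc4+ and the other arrays.

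Fcgr3, an activating receptor, was -0.25 on the Myf5SOR+ array, 0.83 on the Cspg4- Sdc4+ array and -0.53 on the CD1 Sdc4+ array. On the B195AP+, Cspg4- Sdc4-, CD1 Sdc4- and Cspg4+ arrays its signal was not well above background, at measured values of -3.61, -3.78, -4.08 and -3.45. The groups did not overlap. The Sdc4+ mean was 0.02 ± 0.72 (SD, n = 3), in the main processing 13.9-fold higher than a floor for the Sdc4- populations. This floor takes, for each dim array, the higher of the probe's own value and the lowest well-above-background signal. It depends on the background correction, so the fold is not a minimum over the ways of processing. The 4 dim values have no order among themselves. Within the Sdc4+ populations the order was the same as for Fcgr2b, with Cspg4- cells highest and CD1 cells lowest, and the step from Myf5SOR+ to CD1 cells was 0.28 against a spot SD of 0.11. With normexp background correction the Fcgr3 difference was 1.61 and the Fcgr2b difference 2.90 log2 units. In the deposited series table they were 3.14 and 3.34.

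Both mouse lines that gave an Sdc4+ and an Sdc4- population showed the direction of the group means. In CD1 cells Fcgr2b was 10.3-fold higher in Sdc4+ cells and in Cspg4- cells 19.8-fold higher. Against the floor defined above, Fcgr3 was 10.6-fold and 24.4-fold higher in these lines in the main processing. In Cspg4- cells this floor was the probe's own value at background. Neither fold is a minimum over the ways of processing. With normexp background correction the log2 differences in CD1 and Cspg4- cells were 1.32 and 2.19 for Fcgr3 and 2.34 and 3.51 for Fcgr2b. In the deposited series table those of Fcgr3 were 2.84 and 3.75. Among all genes tested, 1.95% were more than 2-fold higher in Sdc4+ than Sdc4- CD1 cells and 4.83% in Cspg4- cells. The lines also differed from each other at the same Sdc4 label. Fcgr2b was 4.46-fold lower in CD1 than in Cspg4- Sdc4+ cells and 2.34-fold lower in CD1 than in Cspg4- Sdc4- cells. More than 2-fold lower in CD1 were 5.45% of all genes among the Sdc4+ and 4.41% among the Sdc4- arrays. Each of these is a difference of single arrays.

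**Figure D3:**
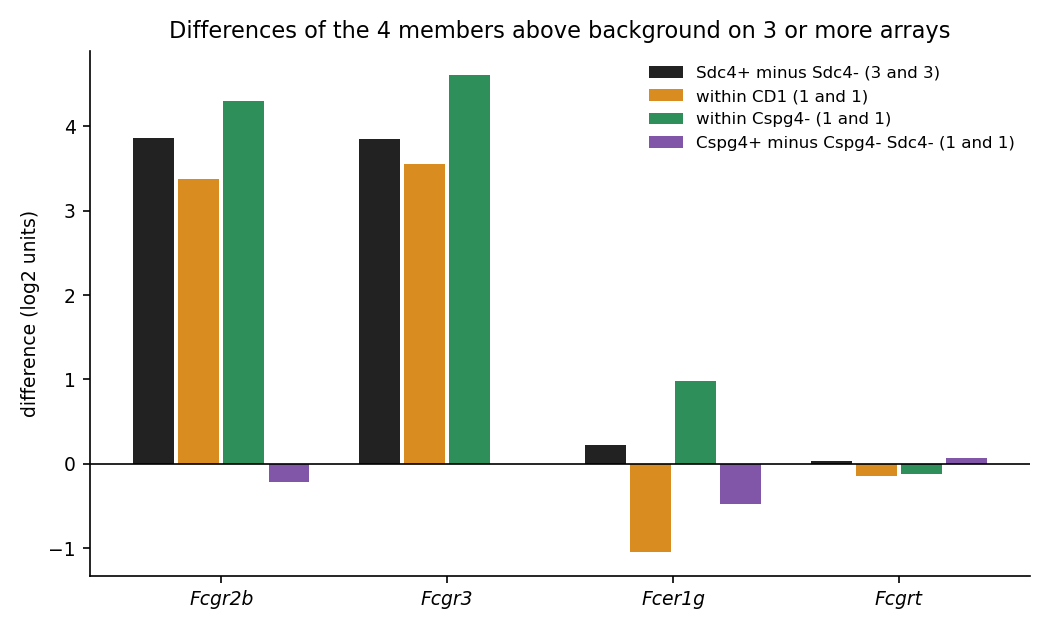
Difference in log2 units between populations for the 4 genes that were above background on at least 3 arrays, with 1 bar per comparison and the number of arrays on each side in the legend. Fcgr3 bars against Sdc4- arrays use measured values at background; no bar is drawn for Fcgr3 in the last comparison because neither array was above background. Fcer1g is the gene whose difference has opposite signs in the CD1 line (-1.04) and the Cspg4- line (0.98).

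Cspg4+ cells were set against both Cspg4- populations of the same line, which the labels split by Sdc4. Fcgr2b was 22.9-fold lower in Cspg4+ than in Cspg4- Sdc4+ cells. Fcgr3 was 19.5-fold lower in the main processing, with the floor defined above used for the Cspg4+ array. Among all genes tested, 4.74% were more than 2-fold lower in this comparison. Against Cspg4- Sdc4- cells the Fcgr2b difference was -0.21, and 1.78% of genes were more than 2-fold lower. For these receptors the Cspg4+ array therefore lay with the Sdc4- arrays.

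Fcer1g, the chain that Fcgr1, Fcgr3 and Fcgr4 signal through, did not follow Fcgr3. It was -2.48 on the Myf5SOR+ array, -1.30 on the Cspg4- Sdc4+ array and -3.07 on the CD1 Sdc4+ array. It was -3.19 on the B195AP+ array, -2.28 on the Cspg4- Sdc4- array, -2.03 on the CD1 Sdc4- array and -2.76 on the Cspg4+ array. The groups overlapped, with means of -2.28 ± 0.90 and -2.50 ± 0.61 (SD, n = 3 each). Within CD1 Fcer1g was 2.06-fold lower in Sdc4+ cells, where 2.51% of genes were more than 2-fold lower, and within Cspg4- it was 1.98-fold higher. The Cspg4- Sdc4+ array alone stood clear of the next by more than 2 spot SDs (0.73 against 0.20). Every other step in the order was smaller than that limit.

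Mast cell markers were set beside the Fcer1g level. The chain is also part of the IgE receptor of mast cells, and the 3 arrays with the highest Fcer1g (Cspg4- Sdc4+, CD1 Sdc4- and Cspg4- Sdc4-) were those with 7 of 9 mast cell markers above background, against 1 to 3 on the other arrays. The summed intensity of the list was 4.13, 2.63 and 2.35 times the 75th percentile on these arrays and between 0.457 and 1.05 on the other 4. Cpa3, the mast cell carboxypeptidase, was -1.11, -0.77 and -0.74 on them and at background elsewhere. The Fcer1g values do not resolve this cut, since Cspg4- Sdc4- cells lay 0.19 above Myf5SOR+ cells with a spot SD of 0.27. Ms4a2, the beta chain of the IgE receptor, was at background on all 7 arrays, and Fcer1a, its alpha chain, was above background on the Cspg4- Sdc4- array alone. Kit, the stem cell factor receptor, was without overlap and higher on the Sdc4+ arrays (-1.63 ± 0.51 against -3.90 ± 1.49, SD, n = 3 each; limma adjusted p = 0.529), and its spot lies in the streaked region. The part of mast cells in the Fcer1g level was not tested. Fcgr2b and Fcgr3 were high on the Myf5SOR+ and CD1 Sdc4+ arrays, where the mast cell list was low.

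Fcgrt, which recycles immunoglobulin G, varied least of the 6 genes. It was 2.98, 3.11 and 2.51 on the Myf5SOR+, Cspg4- and CD1 Sdc4+ arrays, 2.62, 3.22 and 2.66 on the B195AP+, Cspg4- and CD1 Sdc4- arrays, and 3.30 on the Cspg4+ array. The range over 7 arrays was 0.79 log2 units, against 5.53 for Fcgr2b. The Sdc4 groups overlapped, at 2.87 ± 0.31 and 2.83 ± 0.34 (SD, n = 3 each). The 3 arrays of the Cspg4-cre line were the highest, within 0.19 of each other. B2m, the partner of Fcgrt, was likewise above background on all arrays, with Sdc4+ and Sdc4- means of 7.60 ± 0.47 and 7.51 ± 0.35 (SD, n = 3 each; limma adjusted p = 0.943).

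Fcgr1, the high-affinity receptor, was above background on the Cspg4+ array alone, at -3.29 and an intensity of 18.2. In the main processing it was 1.55-fold higher there than the floor, defined as for Fcgr3, of the Cspg4- Sdc4- array. In this comparison 3.51% of genes were more than 2-fold higher. That array also had 2619 genes of all those measured, and 9 of the 158 genes of the pathway and marker lists, above background on it alone, against 52 to 279 genes and 0 to 3 list genes on any other single array. Fcgr4 lies between Fcgr2b and Fcgr3 and was not well above background anywhere. Its values of -6.02 to -4.00 have no order.

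Counted over the family, 4 of the 6 genes passed the filter of 3 arrays above background, and 2 of these 4 were without overlap between the Sdc4 groups, both higher in Sdc4+ cells. Over all 19758 genes tested, 6.13% were without overlap and higher and 9.72% without overlap and lower. Since the set was chosen for this contrast, nothing is read from its count. In limma 0 genes of all 19758 passed an adjusted p of 0.05 (1690 had an unadjusted p under 0.05, and the smallest adjusted p was 0.335), which is a background of 0%. With the mouse line as a random block 9 genes passed and with it as a fixed block 43. The fixed block without the variance trend, an alternative chosen after seeing the data, gave 0 (1916 at an unadjusted p under 0.05).

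The genes that act with the receptors were taken from lists of signal chains, kinases and adaptors, inhibitory phosphatases and adaptors, NADPH oxidase subunits, other Fc receptors, the Fcgrt partner and immunoglobulin chains. Of 64 genes, 36 were tested and 0 passed in limma (5 at an unadjusted p under 0.05; smallest adjusted p = 0.529). Among those tested, the median difference was 0.08 against -0.06 for all genes, with 7 genes without overlap and higher and 1 without overlap and lower. Without scaling between arrays, the median of all genes moved to -0.25.

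Among kinases and adaptors, 19 of 26 were tested, 13 with a higher and 6 with a lower Sdc4+ mean. Syk, the kinase that binds the Fcer1g motifs, had Sdc4+ and Sdc4- means of 0.43 ± 0.60 and 0.43 ± 0.39 (SD, n = 3 each), and its other probe was at background on all arrays. The adaptor Lat2 and the phosphoinositide 3-kinase subunit Pik3r5 had mean differences of 1.78 and 1.89. Neither Lat2 nor Pik3r5 overlapped between the groups, and neither passed (limma adjusted p = 0.585 and 0.62). The spots of both genes lie in the streaked region of the B195AP+ array, as does the spot of Vav2, an exchange factor with a difference of -1.63. Lcp2, Vav1, Pik3cg, Rac2 and Was, all of blood cells, were at background on all 7 arrays, as was Sos1.

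The inhibitory side was measured more fully, with 8 of 9 genes above background on every array. Inpp5d, the phosphatase that Fcgr2b recruits, was the exception and was at background on all 7 arrays. Its relative Inppl1 had Sdc4+ and Sdc4- means of 4.96 ± 0.09 and 4.65 ± 0.57 (SD, n = 3 each). The adaptor Dok1 was 2.15, 2.22 and 1.75 on the Sdc4+ and 3.51, 2.82 and 2.58 on the Sdc4- arrays. Among the tested genes of the pathway lists it was the single gene without overlap and lower (difference -0.93, limma adjusted p = 0.529). The ubiquitin ligase Cblb was without overlap and higher (0.59, limma adjusted p = 0.557), and for its relative Cbl the difference was 0.27.

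Of the NADPH oxidase, Cybb, the catalytic subunit of phagocytes, was at background on all 7 arrays. The membrane subunit Cyba was above background throughout, with Sdc4+ and Sdc4- means of 5.96 ± 0.41 (SD, n = 3) and 5.87 ± 0.15 (SD, n = 2); its B195AP+ value is missing because of an outlier spot. Ncf4 differed by 0.95 without overlap (limma adjusted p = 0.578). Among other Fc receptors, Fcmr, the IgM receptor, was -2.29, -3.33 and -2.00 on the Sdc4+ and -5.30, -3.51 and -3.47 on the Sdc4- arrays, a difference of 1.56 without overlap (limma adjusted p = 0.576). Pigr, the polymeric immunoglobulin receptor, Trim21, the cytosolic Fc receptor, and Fcrlb differed by -0.37, -0.40 and 0.23 with overlap. Cd247, the signal chain of T and NK cells, was the tested member of the chain list and differed by -0.30. Igkc and Jchain were at background on all 7 arrays and Ighm was above it on the Cspg4+ array alone.

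**Figure D4:**
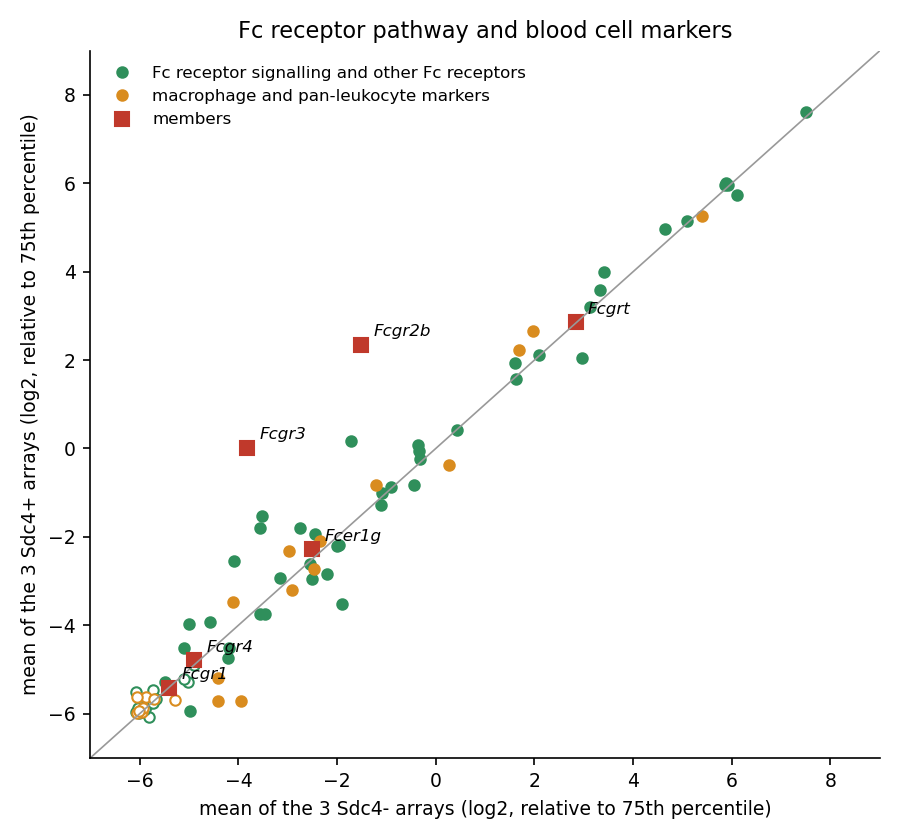
Mean log2 level (relative to the 75th percentile of each array) on the 3 Sdc4+ arrays against the mean on the 3 Sdc4- arrays, for the Fc receptor genes (red squares), genes of the pathway lists (green) and macrophage and pan-leukocyte markers (orange); open circles were at background on all 7 arrays. The line marks equal means; Fcgr2b and Fcgr3 lie furthest above it, 3.86 and 3.84 log2 units.

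The cells best known for Fcgr2b and Fcgr3 were looked for by their markers. Of 15 macrophage markers, 5, 7 and 7 were above background on the Myf5SOR+, Cspg4- and CD1 Sdc4+ arrays and 8, 7 and 7 on the B195AP+, Cspg4- and CD1 Sdc4- arrays. The summed intensity of the list was 41.9 to 59.8 times the 75th percentile on the Sdc4+ and 41.5 to 66.6 on the Sdc4- arrays, most of it from Itgam, whose 3 probes were above background on 7, 6 and 1 arrays. Mrc1, Cd163, C1qa, C1qc, Lyz2 and Spi1 were at background on all 7 arrays, and so were the pan-leukocyte markers Ptprc (CD45) and Lcp1. Csf1r, the receptor for colony stimulating factor 1, was above background throughout and without overlap, at 2.67 ± 0.25 against 1.98 ± 0.20 (SD, n = 3 each; limma adjusted p = 0.529). Of the other macrophage markers, Cd68, Cd14 and Mertk were above background on all 7 arrays, C1qb on 6 and Aif1 on 5, and the groups overlapped for each of these, with differences of 0.54, -0.64, 0.38, -0.27 and 0.65. The pan-leukocyte markers Coro1a and Cd52 were above background on all 7 arrays, with overlapping groups and differences of -0.27 and 0.26. Cd53 was above background on 2 Sdc4+ arrays, on 0 Sdc4- arrays and on the Cspg4+ array, and differed by 0.64 without overlap (limma adjusted p = 0.652; its spot lies in the streaked region). The summed pan-leukocyte list was 0.401 to 0.787 on the Sdc4+ and 0.548 to 0.603 on the Sdc4- arrays. Of 7 neutrophil markers, 4 or 5 were above background on each array. The list summed to 170 to 205 on the Sdc4+ and 170 to 233 on the Sdc4- arrays, most of it from Csf3r. S100a8, Csf3r, Ly6g and Elane were above background on all 7 arrays, with overlapping groups and differences of 0.08, -0.05, 0.13 and -0.11. Of the B cell markers, Ms4a1 and Pax5 were at background on all 7 arrays, while Cd79b was above it on 3 Sdc4+ and 1 Sdc4- array (difference 2.65 with overlap, limma adjusted p = 0.576).

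Markers of other cells differed between the same groups. The 8 sarcomere genes were all lower on the Sdc4+ arrays without overlap, where 9.72% of all genes tested were without overlap and lower. Their summed intensity was 0.531 to 1.66 against 5.76 to 45.5 times the 75th percentile, and 0 of 8 passed (smallest limma adjusted p = 0.393). The melanocyte list summed to 34.9 to 43.4 on the Sdc4+ and 18.3 to 33.1 on the Sdc4- arrays, nearly all of it from Mitf (5.27 ± 0.17 against 4.63 ± 0.43, SD, n = 3 each), a factor that is not particular to melanocytes. The other markers did not move one way: Dct and Mlana differed by 0.86 and 1.60 and Tyr and Pmel by -0.46 and -0.51, all with overlap, and Tyrp1 was at background on all 7 arrays. The endothelial list summed to 11.3 to 16.5 on the Sdc4+ and 16.8 to 18.9 on the Sdc4- arrays, nearly all of it from Kdr. Of its 6 genes only 2, Kdr and Pecam1, were above background on at least 3 arrays. They were lower on the Sdc4+ arrays without overlap, by -0.43 and -0.45 (limma adjusted p = 0.59 and 0.652). The spot of Pecam1 lies in the streaked region. The part of these cells in the Fcgr2b and Fcgr3 levels was not tested.

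Genes with a pattern like Fcgr2b or Fcgr3 were taken as the 5 with the highest Pearson correlation over the 7 arrays, among 3144 genes that ranged over at least 2 log2 units. For Fcgr2b they were Tchhl1 (r = 0.976), Fam20c (r = 0.972), Hmox1 (r = 0.964), Necab2 (r = 0.922) and Rassf3 (r = 0.922), and 8 genes in all had r above 0.9. For Fcgr3 they were Tchhl1 (r = 0.995), Hmox1 (r = 0.967), Phlda2 (r = 0.931), Necab2 (r = 0.931) and Osgin1 (r = 0.924), with 10 genes above 0.9. The points share the slide and the Sdc4 split, so the correlations are descriptions. On the 4 arrays without the Sdc4+ label, Tchhl1 was -5.91 to -5.70 and Phlda2 -5.99 to -4.70. Both lay under the lowest well-above-background signal of those arrays (-3.93 to -3.73), so they passed the filter through the Sdc4+ arrays alone. Fcgr3 was at background on the same 4 arrays, so its correlations with these genes largely restate the Sdc4 split. Hmox1, the heme-degrading enzyme heme oxygenase 1, was 5.40, 6.27 and 5.17 on the Myf5SOR+, Cspg4- and CD1 Sdc4+ arrays. It was 3.93, 4.09 and 4.23 on the B195AP+, Cspg4- and CD1 Sdc4- arrays and 4.25 on the Cspg4+ array. Cspg4- Sdc4+ cells were thus the highest for Hmox1 as for both receptors. Fam20c, a kinase of secreted proteins, was 4.01, 4.37 and 3.63 on the Sdc4+ arrays in the same order and 2.35 to 3.27 on the other 4.

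On the chromosome, Fcgr2b, Fcgr4 and Fcgr3 lie in 1 cluster on mouse chromosome 1, with the Fcgr4 probe 68.8 kb from the Fcgr2b probe and 24.4 kb from the Fcgr3 probe. The Fcer1g probe lies 269 kb from the Fcgr2b probe. Within 500 kb on either side, from Fcgr2b to Fcer1g, 38 named genes had a probe, 27 of them tested and outside the family. Their Sdc4+ minus Sdc4- differences ran from -1.61 to 0.37 with a median of -0.02. Among these 27, 1 was without overlap and higher (Dedd, 0.37) and 1 without overlap and lower (Nr1i3, -0.68). Over all genes tested, 6.13% were without overlap and higher and 9.72% without overlap and lower. Fcrlb and Fcrla on one side and Cfap126 and Sdhc on the other are the nearest measured genes. Of these Fcrla was at background, and Fcrlb, Cfap126 and Sdhc differed by 0.23, -0.02 and 0.07. Between Fcgr2b and Fcgr4 lies the predicted gene Gm10522, which was above background on 2 arrays. It was -1.77 on the Myf5SOR+ array, -1.49 on the Cspg4- Sdc4+ array and -6.16 on the CD1 Sdc4+ array, and -6.04 to -4.62 on the other 4.

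**Figure D5:**
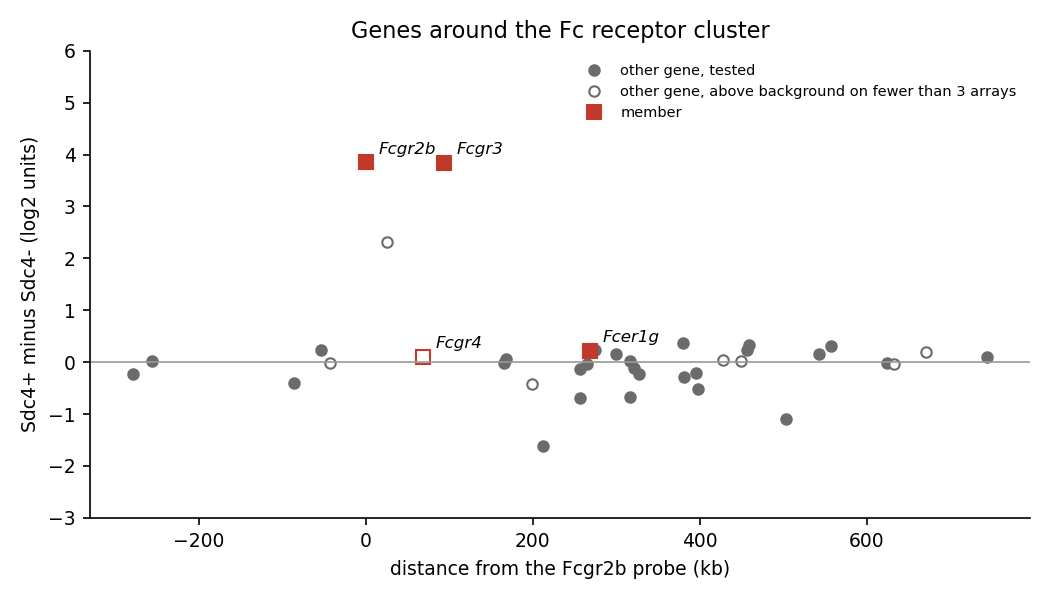
Sdc4+ minus Sdc4- difference in log2 units (means of 3 arrays each) for every named gene around the Fc receptor cluster, against the distance of its probe from the Fcgr2b probe in kb. Squares are Fc receptor genes, circles other genes, and open symbols were above background on fewer than 3 arrays. Fcgr2b and Fcgr3 stand at 3.86 and 3.84, while Fcgr4 between them is at background.

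Promoters are shown for the 3 clustered receptors because 2 of them were high on the same arrays and the third was not detected. They hold 250 bases before and 50 after the start site, from RefSeq (GRCm38.p6), 5′ to 3′ on the strand of the gene. Capitals mark GAGGAA, the core of the binding site of the blood cell factor encoded by Spi1, found on the opposite strand and so reading TTCCTC.
Fcgr2b, chr1:170976022-170976321, minus strand: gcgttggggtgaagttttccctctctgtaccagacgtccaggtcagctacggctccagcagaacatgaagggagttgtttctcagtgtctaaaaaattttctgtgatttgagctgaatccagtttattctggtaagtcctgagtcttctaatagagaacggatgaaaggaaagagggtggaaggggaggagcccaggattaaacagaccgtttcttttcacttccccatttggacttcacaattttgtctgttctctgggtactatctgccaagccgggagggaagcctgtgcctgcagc
Fcgr3, chr1:171059354-171059653, minus strand: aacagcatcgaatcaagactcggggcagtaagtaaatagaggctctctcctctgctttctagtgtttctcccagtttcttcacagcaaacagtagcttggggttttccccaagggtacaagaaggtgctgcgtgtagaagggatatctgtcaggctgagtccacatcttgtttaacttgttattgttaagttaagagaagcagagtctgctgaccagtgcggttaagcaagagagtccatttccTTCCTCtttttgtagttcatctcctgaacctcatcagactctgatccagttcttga
Fcgr4, chr1:171018676-171018975, plus strand: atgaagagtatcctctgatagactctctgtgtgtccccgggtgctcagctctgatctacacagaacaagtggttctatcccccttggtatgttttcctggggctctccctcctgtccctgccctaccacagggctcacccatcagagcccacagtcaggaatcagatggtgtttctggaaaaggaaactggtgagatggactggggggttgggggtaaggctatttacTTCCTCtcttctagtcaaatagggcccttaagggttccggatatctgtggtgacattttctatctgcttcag
The match begins 6 bases before the start site in Fcgr3, 22 bases before it in Fcgr4 and 55 bases before it in Fcgr1, and the letters are not in the windows of Fcgr2b, Fcer1g and Fcgrt. Searched on both strands, GAGGAA occurs in 28.3% of 32851 promoters of the same length. The AP-1 motif TGANTCA, in 7.81% of promoters, was in none of the 7 windows of the 6 genes. The E-box CANNTG, in 72.3%, was in those of Fcgr1, Fcgr2b, Fcgr4 and Fcer1g, and no match of it overlapped GAGGAA. Spi1 was at background on all 7 arrays.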

How the data were processed

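Cells of 7 mouse populations gave 10 to 200 ng of RNA each, which was amplified with a low-input kit and hybridised to single-colour Agilent SurePrint G3 arrays, per the labels' protocols. Per the file headers, the deposited array files hold spot intensity from Feature Extraction 11.5.1.1 after background subtraction, with no normalization between arrays. Biotin is the label that GEO names, although the files have 1 green channel. A deposited series table gives log2 values (column medians 5.15 to 5.17), for which lumi is named by the submitters' processing notes. How it was centred is unknown here, so it was an alternative only.

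The 75th percentile of all 59305 non-control spots was subtracted from the log2 intensity of each array, outlier spots were set to missing, and spots of 1 probe were averaged. Probes took the RefSeq symbol (GRCm38.p6) of their accession where 1 matched (31057 of 55681). For a gene with several probes the brightest on average was used. Tested were genes with a signal well above background on 3 or more of the 7 arrays. limma 3.58.1 in R 4.3.3 fitted a mean for each of 3 groups with a variance trend, with Benjamini-Hochberg adjustment over 19758 genes. The fit was tested on simulated data. With 7 arrays, precision is limited by their number. The error of a single-spot probe was taken from the 20 repeated probes nearest in level, and it holds the spread between spots of an array only.

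The genes, lists and tests were chosen with earlier results of these data known. Named were all 6 members, up to 4 genes per list by size of the Sdc4 difference, the 5 genes most correlated with Fcgr2b and with Fcgr3, and the nearest neighbours. Other list genes (Syk, Inpp5d, those at background, Ighm, Mertk, C1qb, Itga7, Tyr, Fcer1a and Ms4a2) and Nr1i3 and Dedd were named after their values were seen. Some list genes are not reported here. The alternatives were other normalizations, background corrections, filters, the mouse line as a block, leaving out arrays and, chosen after seeing the data, fits without the variance trend.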

Additional observations from a re-analysis of the deposited data

Results flagged for a closer look

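The Fcer1g difference between Sdc4+ and Sdc4- cells had opposite signs in the lines that gave both populations. It was -1.04 log2 units in CD1 and 0.98 in the Cspg4- line. With 1 array per population the difference between the lines was not tested. Both values kept their sign under the 6 alternative ways of processing, between -1.04 and -0.39 in CD1 and between 0.51 and 1.00 in Cspg4-. Leaving out the streaked region or averaging over probes could not change them, so the -1.04 end is the unchanged value. The gene has 1 probe, and neither comparison uses the B195AP+ array.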

How the results depend on the processing

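Each population has 1 array, so SDs span mouse lines, and Fcgr1, Fcgr4 and the Sdc4- values of Fcgr3 are at background. The Sdc4+ minus Sdc4- difference of Fcgr2b was 2.90 with normexp background correction (offset 50). That of Fcgr3 was 1.61 with normexp and 3.14 in the deposited series table; the cause was not tested. Leaving out 1 array at a time gave 3.31 to 4.39 for Fcgr2b and 3.44 to 4.12 for Fcgr3. In Cspg4- cells, Fcgr1 (0.17) and Fcgr4 (0.15), at background on both arrays, turned positive with normexp. Of 180 member differences, 161 moved by less than the spread between arrays. Some of these could not move. Averaging over probes changes nothing for genes with 1 probe, and leaving out the streaked region acts only where the B195AP+ array is used. The sign changed in 27 of the 180, 18 of them for Fcgr1 and Fcgr4, 2 for Fcer1g and 7 for Fcgrt (main differences of 0.22 or less for the last 2 genes), and in 0 for Fcgr2b and Fcgr3; of 228 list medians 223 moved by less. In limma 9 genes passed (4 higher, 5 lower) with the mouse line as a random block (consensus correlation 0.601) and 43 (15 higher, 28 lower) with it as a fixed block, which leaves 1 residual degree of freedom and used the variance trend. Without that trend, an alternative added after seeing the data, the fixed block gave 0 genes and the fit without a block also 0. No gene of the pathway lists passed in limma under any alternative. Leaving out 1 array at a time gave 0 genes throughout. By replicate number no paired analysis was possible because every population is labelled replicate 1; arrays of the same line were paired through these line blocks and the differences within CD1 and Cspg4-.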
